A study of Mus musculus with 4 samples.

Results

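The genes described here encode the classical inflammatory cytokines tumour necrosis factor (Tnf), interleukin-1 alpha and beta (Il1a, Il1b), interleukin-6 (Il6) and oncostatin M (Osm), the IL-12 family subunits p35, p40 and p19 (Il12a, Il12b, Il23a), the anti-inflammatory cytokine interleukin-10 (Il10) and the inducible nitric oxide synthase (Nos2). They were chosen by name, and all 10 were found among the 35869 genes listed. RNA was from immune cells of the epididymal white adipose tissue (eWAT) of male WT C57BL/6 mice, taken from the stromal vascular fraction, the cells left after collagenase digestion and removal of adipocytes, with magnetic beads against CD45, a surface protein of leukocytes. The ND group was fed a normal diet with 10% of calories from fat, and the HFD group a high-fat diet with 60% from 8 weeks of age for 12 weeks. Each diet had 2 samples. No gene was deleted and no agent was given in any of the 4 samples. How many mice were pooled into a library is not given in the sources used here, and p-values measure only the spread between these samples, which may be technical. The question was whether these inflammatory genes differed between the diets in the immune cells of the fat.

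Inflammatory cytokines are made in bursts by macrophages and other leukocytes after sensors of microbes or damage activate NF-kappa B, AP-1 and related transcription factors, and their mRNAs are short-lived. TNF and IL-1 act on tissue cells to spread inflammation and interfere with insulin action in adipocytes, IL-6 and oncostatin M signal through receptors that share the chain gp130, IL-12 and IL-23 steer T and NK cells, and IL-10 restrains the macrophages that make it. NOS2 makes nitric oxide from arginine and, in mice, is a marker of classically activated macrophages. In obesity, adipose macrophages are widely described as a source of TNF and IL-1 beta.

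Of the 10 genes, Il10 was the only one called higher in HFD than in ND, and none was called lower. A gene was called when its adjusted p in limma was under 0.05 and its level, as log2(TPM + 1), differed by at least 1.5-fold. TPM is a transcript level scaled for gene length and to the same total in each sample. Il12a was listed below 1 TPM in each of the 4 samples and was not tested, which left 9 genes tested and 8 not called. Over all 16849 genes tested, 18.4% were called, 8.08% higher and 10.3% lower, and 27.3% had an adjusted p under 0.05, as Il10 did. An unadjusted p under 0.05 was reached by 3 of the 9 genes, Il10, Tnf and Il23a, against 42.3% of all genes tested. Both HFD samples lay above both ND samples for 5 of the 9 (Tnf, Il1b, Il10, Il23a and Nos2), against 34.1% of all genes tested, and below for Il6, against 32.8%. The samples of the diets overlapped for Il1a, Il12b and Osm, so that 6 of the 9 did not overlap, against 66.9% of all genes tested. The median difference of the 9 genes was 0.21 on the log2 scale, and that of all genes tested was 0.06. With 2 samples per diet, 0.333 is the smallest p that an exact two-sided permutation test of 1 gene allows.

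The genes fell into an abundant and a scarce set. Il1b, Il10, Il6, Osm, Tnf and Il1a had mean levels above 50 TPM, Il12b lay between 9.4 and 15.4 TPM, Il23a and Nos2 lay close to the floor of 1 TPM, and Il12a lay below it. In both ND samples the order of levels was Il1b, Il10, Il6, Osm, Tnf, Il1a, Il12b, Il23a, Nos2 and Il12a. In both HFD samples Il10 came first, Il1b was next, Tnf was the third and Il6 had moved to the fifth place, with Osm between them. The neighbours Osm and Il6 overlapped in HFD, and no other neighbours in the order overlapped in either diet. The summed level of the 10 genes was 1492 and 1554 TPM in ND against 2005 and 2145 in HFD, most of it from Il10 and Il1b.

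**Figure D1:**
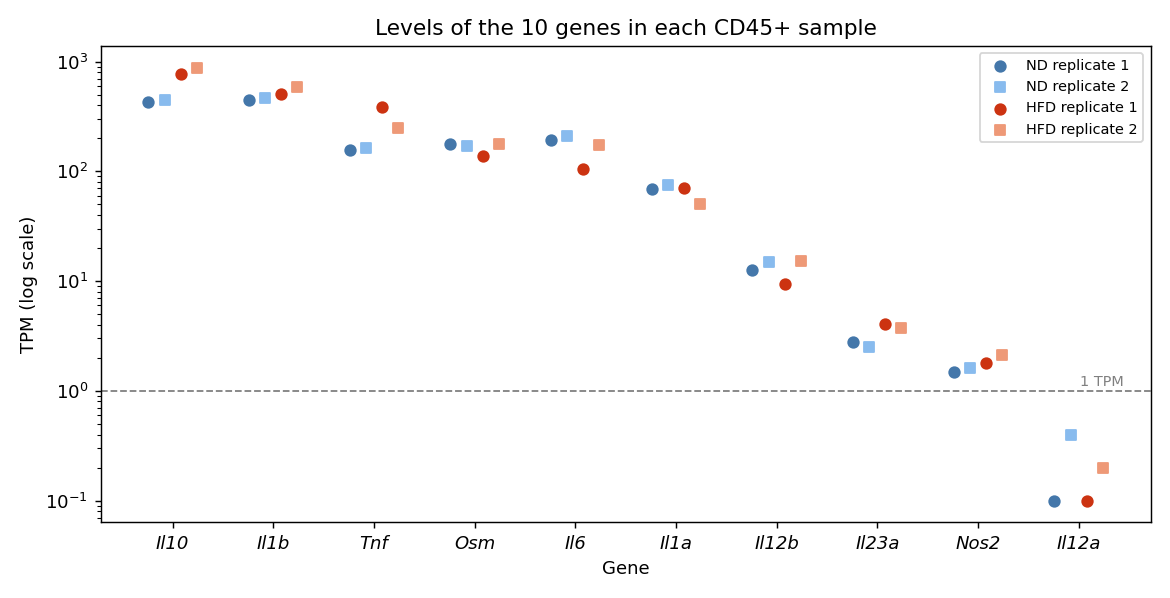
Level of each of the 10 genes in TPM on a log axis, with 1 point for each of the 2 ND and 2 HFD samples. Il10 and Il1b stood highest in all samples, Il12a lay below the floor of 1 TPM, and Il23a and Nos2 lay just above it.

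**Figure D2:**
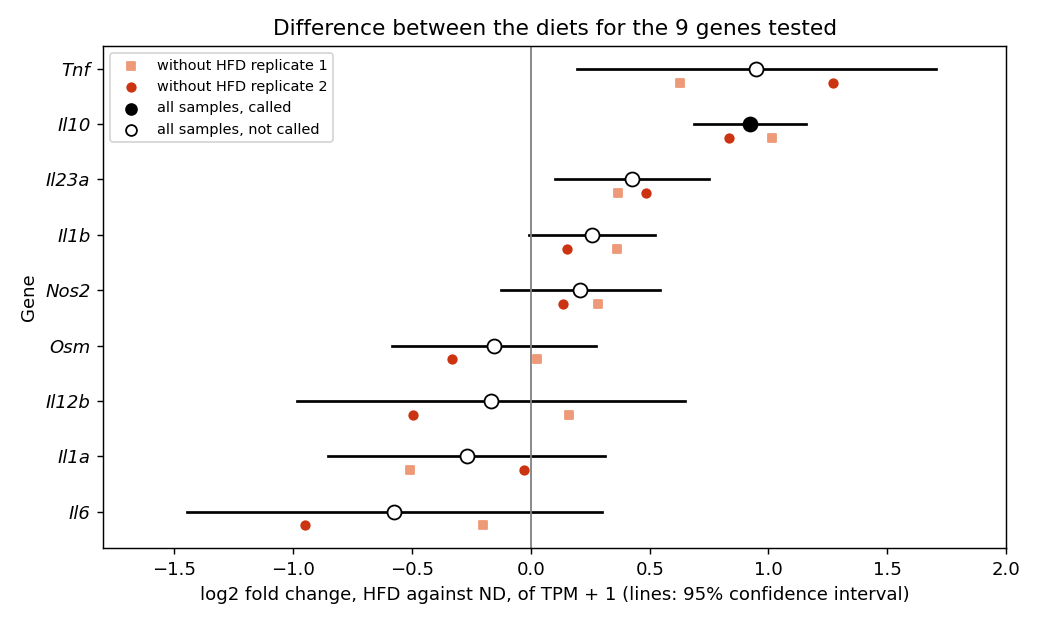
Difference HFD minus ND on the log2(TPM + 1) scale for the 9 genes tested, with the 95% confidence interval from limma. Il10 was the one gene called, with an interval of 0.69 to 1.16, and the wide interval of Tnf ran from 0.19 to 1.70.

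The levels of cell type markers in the CD45 fraction also differed between the diets. Ptprc, which encodes CD45, was level at 53.7 to 59.4 TPM over the 4 samples. Summed markers of macrophages were 1537 and 1532 TPM in ND against 2288 and 2310 in HFD, with Cd68 and Adgre1 called higher of 5 genes. The list was not uniform, since its median difference was 0.10, Fcgr1 had 0.10, Mertk -0.29 (adjusted p = 0.0715) and Csf1r -0.56 (313.9 and 312.4 TPM in ND against 217.4 and 206.8 in HFD, adjusted p = 0.00929, under the fold limit). Markers of T cells (6 of 6 called lower), B cells (5 of 5), NK cells (5 of 5), mast cells (6 of 6) and neutrophils (5 of 5 tested, with Ly6g at or below 0.1 TPM) were lower in HFD, as were 2 of 4 monocyte and 2 of 6 dendritic cell markers. Fibroblast markers, which a CD45 fraction should lack, summed to 522 and 561 TPM in ND and to 2837 and 5686 TPM in HFD, with 4 of 6 called higher. Markers of endothelium summed to 424 to 568 TPM with none of 5 called, those of mesothelium to 38.4 to 78.9 TPM with 1 of 4 lower, and those of adipocytes to 14 to 46.3 TPM with 1 of 5 higher and 1 lower. Spermatid transcripts, of a cell type of the neighbouring testis, summed to 6108 TPM in HFD replicate 1 and to 1644 to 1910 TPM in the other samples. The summed level of 10 immediate early and stress genes induced by tissue dissociation was 21500 and 20560 TPM in ND against 10980 and 10690 in HFD, and all 10 were called lower. The part of these differences in the results below was not tested, and in bulk RNA fewer cells of a type cannot be told apart from less RNA per cell.

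**Figure D3:**
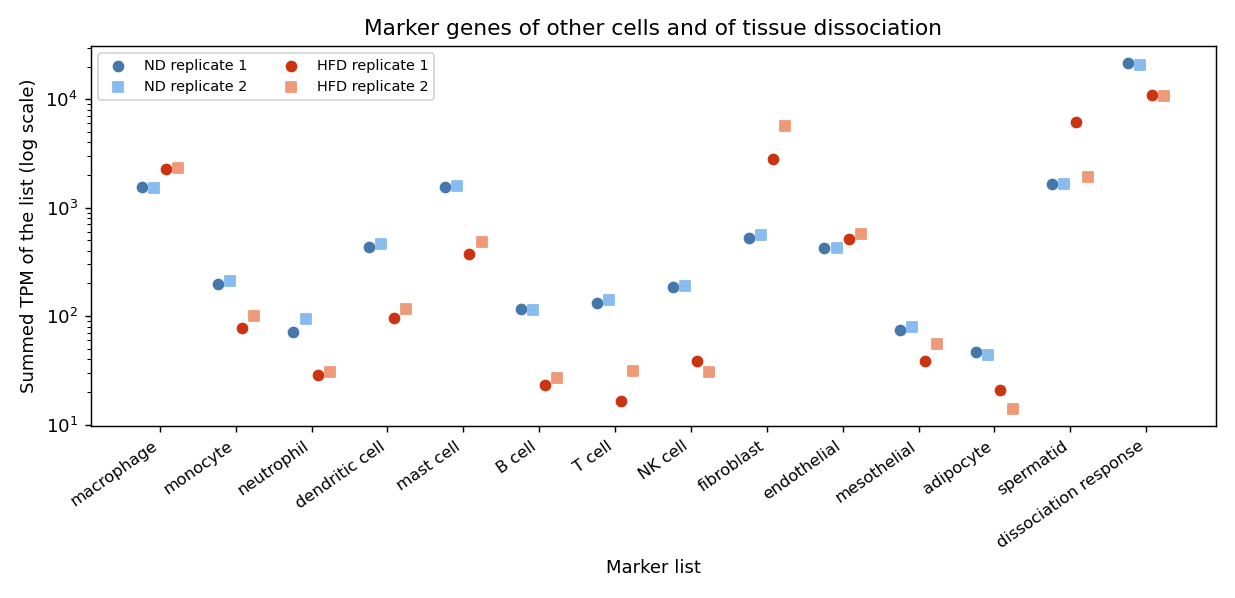
Summed TPM of each marker list on a log axis, with 1 point per sample. Lymphocyte, mast cell and neutrophil markers had lower sums in both HFD samples, and the fibroblast sum and the macrophage sum, which Cd68 and Adgre1 dominate, were higher.

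Il10, which acts back on macrophages to limit their cytokine output, was the most abundant of the 10 genes in HFD. Its level was 428.1 and 445.2 TPM in ND against 778.2 and 882.1 in HFD, or 437 ± 12.1 against 830.2 ± 73.5 (mean ± SD, n = 2 each). The diets did not overlap. Il10 rose by 0.92 on the log2 scale (SE 0.08, 95% CI 0.69 to 1.16), a 1.9-fold difference, with an adjusted p of 0.0107 in limma. The call held with either HFD sample left out, at 0.83 and 1.01. It was lost with ND replicate 1 left out (0.89, adjusted p = 0.174) or ND replicate 2 left out (0.95, adjusted p = 0.163), settings in which 0 of all 16849 genes were called. Under the other alternatives the adjusted p ran from 0.00264 to 0.046, with the highest under a replicate block. Il10 lies on mm10 chromosome 1 from 131019845 to 131024974 on the plus strand, with 5 exons, and no other annotated gene overlaps it.

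Both chains of the IL-10 receptor were expressed, and they differed in opposite directions. Il10rb, the chain shared with other receptors of the IL-10 family, was at 112.2 and 118.6 TPM in ND against 182.5 and 187.6 in HFD and rose by 0.68 (adjusted p = 0.00876), although quantile normalization brought the difference to 0.55, under the fold limit. Il10ra, the chain that binds IL-10, was at 119.0 and 122.1 TPM in ND against 95.2 and 86.0 in HFD, a difference of -0.41 with an adjusted p of 0.0327, under the fold limit and so not called. The ratio of Il10rb to Il10ra was 0.943 and 0.971 in ND and 1.92 and 2.18 in HFD. Maf, a transcription factor that drives Il10 in macrophages and T cells, fell by 1.53 (279.3 and 291.6 TPM in ND, 99.0 and 96.8 TPM in HFD; adjusted p = 0.00411).

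Tnf, the founding member of its cytokine family, had a fitted difference close to that of Il10 but was not called. Its level was 155.5 and 164.6 TPM in ND against 387.8 and 247.4 in HFD, or 160.1 ± 6.43 against 318 ± 99.3. Both HFD samples stood above both ND samples, and HFD replicate 1 stood well above HFD replicate 2. The difference was 0.95 (SE 0.25, 95% CI 0.19 to 1.70), or 1.93-fold with an interval of 1.14-fold to 3.26-fold, and its adjusted p was 0.077. Tnf was called under median-ratio scaling (0.93, adjusted p = 0.0413), without HFD replicate 1 (0.63, adjusted p = 0.0466) and without HFD replicate 2 (1.27, adjusted p = 0.0278). Under all alternatives other than leaving out a sample, the difference lay between 0.80 and 0.95 and the adjusted p between 0.0413 and 0.147.

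The 250 bases before the Tnf start are shown because its control is textbook biology of this pathway, beside those of Il1b and Il6. The fitted differences of Il1b (0.26) and Il6 (-0.58) lay below that of Tnf (0.95). None of these genes was called, and they were not tested against each other. The windows are from RefSeq on GRCm38.p6, the assembly called mm10, and are read 5′ to 3′ on the gene's strand. RefSeq windows were held for 6 of the 10 genes (Tnf, Il1a, Il1b, Il6, Il12a and Il12b). They were searched on both strands for TATAAA, the core of a TATA box, for TGANTCA, the AP-1 site, and for the kappa B consensus, with matches printed in capitals. Of 32851 windows of the same length, 12.4% hold TATAAA, 6.75% hold TGANTCA and 3.9% hold the kappa B consensus.

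Tnf promoter, chr17:35202008-35202257, minus strand, with TATAAA from -29 to -24:
Tnf: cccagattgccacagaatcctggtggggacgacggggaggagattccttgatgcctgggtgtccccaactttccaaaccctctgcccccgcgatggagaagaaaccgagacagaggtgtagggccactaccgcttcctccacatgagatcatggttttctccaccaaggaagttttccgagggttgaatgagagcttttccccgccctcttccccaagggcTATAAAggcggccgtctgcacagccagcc

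Il1b promoter, chr2:129371140-129371389, minus strand, with TATAAA from -31 to -26:
Il1b: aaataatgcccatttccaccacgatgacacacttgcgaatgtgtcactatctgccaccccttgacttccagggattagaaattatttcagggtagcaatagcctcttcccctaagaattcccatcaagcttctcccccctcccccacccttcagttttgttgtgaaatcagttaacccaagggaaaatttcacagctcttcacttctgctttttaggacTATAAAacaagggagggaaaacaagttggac

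Il6 promoter, chr5:30012864-30013113, plus strand, with TGANTCA from -249 to -243 and the kappa B consensus from -44 to -35:
Il6: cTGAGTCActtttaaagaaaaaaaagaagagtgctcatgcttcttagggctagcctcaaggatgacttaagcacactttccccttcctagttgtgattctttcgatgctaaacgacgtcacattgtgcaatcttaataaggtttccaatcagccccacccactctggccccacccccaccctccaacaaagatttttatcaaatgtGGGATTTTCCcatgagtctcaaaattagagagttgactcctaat

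The Tnf and Il1b windows each held TATAAA alone of the patterns searched, and the Il6 window held the other 2 patterns. TGANTCA is its own reverse complement apart from its open base, so its match stands on both strands. Il1a held TATAAA from -32 to -27 and TGANTCA from -12 to -6, and the windows of Il12a and Il12b held none of these letters. A match is a description of the letters and not of binding, and no match says only that these letters are not in this window.

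TNF acts through a receptor found on most cells and one found mainly on immune cells. Tnfrsf1a, the broad receptor, was at 428.8 and 429.7 TPM in ND against 337.6 and 392.5 in HFD, a difference of -0.24 with an adjusted p of 0.146. Tnfrsf1b, the immune receptor, was at 231.4 and 234.9 TPM in ND against 328.6 and 352.2 in HFD, and its difference of 0.54 had an adjusted p of 0.0123 but was just under the fold limit, which it passed without HFD replicate 1 (0.59). The ratio of Tnfrsf1b to Tnfrsf1a was 0.54 and 0.547 in ND and 0.973 and 0.897 in HFD. Adam17, the protease that sheds TNF from the cell surface, rose by 0.79 (20.1 and 21.7 TPM in ND, 35.7 and 38.1 TPM in HFD; adjusted p = 0.0121), the one gene of 8 called in the list of processing and release.

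Il1b, the secreted form of IL-1 that caspase 1 cuts from its precursor, was the most abundant of the genes in ND. Its level was 450.4 and 468.4 TPM in ND against 510.9 and 590.7 in HFD, or 459 ± 12.7 against 551 ± 56.4. Both HFD samples stood above both ND samples by a small margin. The difference was 0.26 (SE 0.09, 95% CI -0.01 to 0.52) with an adjusted p of 0.125, and with any sample left out it stayed between 0.15 and 0.36. The interval ran from 0.995-fold to 1.44-fold, under the fold limit at its upper end. Casp1 was at 115.5 and 124.5 TPM in ND against 158.3 and 150.3 in HFD (difference 0.36, adjusted p = 0.034, not called by fold). Casp4, the sensor of intracellular lipopolysaccharide, had a difference of -0.46 (adjusted p = 0.0386, not called by fold, but called under quantile normalization).

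Il1a, the form of IL-1 that acts from dying cells and from the membrane, was at 69.3 and 75.2 TPM in ND against 70.8 and 50.4 in HFD, or 72.2 ± 4.17 against 60.6 ± 14.4. The diets overlapped, and HFD replicate 2 was the low sample. The difference was -0.27 (95% CI -0.85 to 0.31) with an adjusted p of 0.386. The ratio of Il1b to Il1a was 6.5 and 6.23 in ND and 7.22 and 11.7 in HFD. Both genes lie on the minus strand of mm10 chromosome 2 (Il1a from 129299610 to 129309972, Il1b from 129364570 to 129371139), and exons of Gm14023 and Il1bos overlap them on the opposite strand. Gm14023 was listed at 32.4 to 56.0 TPM and Il1bos at 11.9 to 16.4 TPM. Whether the counting used strand is not given in the sources used here, and without strand reads of such partners cannot be told apart.

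The brakes on IL-1 differed in both directions. Il1rn, the receptor antagonist that occupies the IL-1 receptor without a signal, was at 49.4 and 51.6 TPM in ND against 103.0 and 110.1 in HFD. It rose by 1.06 (95% CI 0.88 to 1.24, adjusted p = 0.00626). The ratio of Il1rn to Il1b was 0.11 in each ND sample and 0.202 and 0.186 in HFD, a difference of 0.82 in the mean log2 ratio. Sigirr, an inhibitory receptor of the IL-1 family, fell by 1.17 (4.7 and 5.0 TPM in ND, 1.7 and 1.5 TPM in HFD; adjusted p = 0.0112), a call lost at a pseudocount of 5. The decoy receptor Il1r2 was at 4.1 and 3.6 TPM in ND against 1.9 and 2.7 in HFD (difference -0.56, adjusted p = 0.0986). The signalling receptor Il1r1 was near the floor at 0.9 and 1.1 TPM in ND against 1.5 and 3.0 in HFD (adjusted p = 0.182, but called without HFD replicate 1), and its partner Il1rap lay at 2.3 to 3.0 TPM (adjusted p = 0.469).

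**Figure D4:**
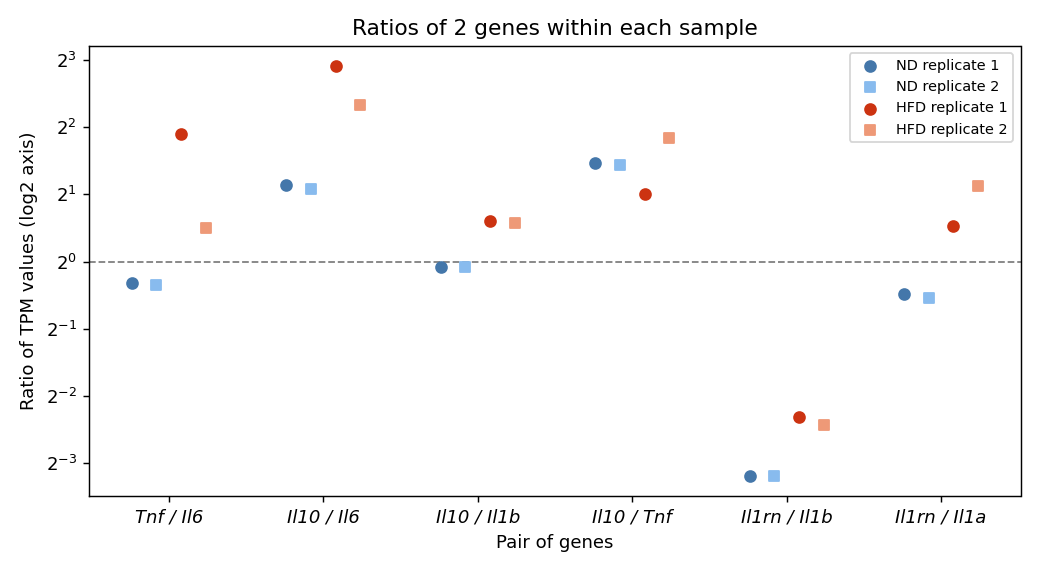
Ratios of TPM between 6 pairs of genes on a log2 axis, with 1 point for each of the 4 samples and a dashed line where the levels are equal. The ratio of Il10 to Tnf overlapped between the diets (2.01 and 3.57 in HFD), and the other pairs stood higher in both HFD samples.

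Il6, a cytokine with effects on B cells, hepatocytes and metabolism, was the one gene of the 10 with both HFD samples below both ND samples, and it was not called. Its level was 194.1 and 209.9 TPM in ND against 104.1 and 175.3 in HFD, or 202 ± 11.2 against 139.7 ± 50.3. HFD replicate 2 lay close to the ND samples and HFD replicate 1 lay far below them. The difference was -0.58 (95% CI -1.45 to 0.30) with an adjusted p of 0.241. It was called without HFD replicate 2 (-0.95, adjusted p = 0.035) and was -0.20 without HFD replicate 1 (adjusted p = 0.187), so the size rested on HFD replicate 1. The same sample held the highest Tnf, the lowest Il12b and Osm, and the high spermatid transcripts given above. The ratio of Tnf to Il6 was 0.801 and 0.784 in ND, 3.73 in HFD replicate 1 and 1.41 in HFD replicate 2. The ratio of Il10 to Il6 was 2.21 and 2.12 in ND and 7.48 and 5.03 in HFD.

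Osm, the gp130 cytokine made by activated macrophages and neutrophils, was at 177.1 and 171.8 TPM in ND against 138.2 and 177.5 in HFD, or 174 ± 3.75 against 158 ± 27.8. HFD replicate 2 matched the ND samples and HFD replicate 1 was lower. The difference was -0.15 (95% CI -0.58 to 0.27) with an adjusted p of 0.49, and it turned to 0.03 without HFD replicate 1 (adjusted p = 0.621). The lower end of the interval came just short of the fold limit.

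Of the receptor chains of the gp130 cytokines, Il6ra and Lifr were called lower, and Il6st and Osmr were not called. Il6st, which encodes gp130, was level at 147.3 to 166.6 TPM (difference -0.01, adjusted p = 0.911). Il6ra, the chain that binds IL-6, fell by 0.96 (107.7 and 116.4 TPM in ND, 59.2 and 54.8 TPM in HFD; adjusted p = 0.00897). Lifr, the receptor of leukaemia inhibitory factor that can also bind oncostatin M, fell by 1.69 (32.5 and 36.1 TPM in ND, 9.9 TPM in each HFD sample; adjusted p = 0.00536). Osmr, the specific oncostatin M receptor, typical of fibroblasts and other stromal cells, was at 2.6 TPM in each ND sample and 5.4 and 9.4 TPM in HFD. Its difference of 1.18 had an adjusted p of 0.0628, and it was called with a filter on a mean TPM of at least 5 (adjusted p = 0.0475), without HFD replicate 1 (1.53) and without HFD replicate 2 (0.83). Its 2 HFD values ran in the order of the fibroblast sums given above, 2837 and 5686 TPM. An order shared by only 2 samples cannot show a link, and the part of fibroblast RNA in the Osmr level was not tested.

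The IL-12 family pairs p40 with p35 to make IL-12 and with p19 to make IL-23. Il12b, encoding p40, was at 12.6 and 14.8 TPM in ND against 9.4 and 15.4 in HFD, or 13.7 ± 1.56 against 12.4 ± 4.24. The diets overlapped, since the HFD samples were the lowest and the highest of the 4. The difference was -0.17 (95% CI -0.98 to 0.65, adjusted p = 0.688) and turned to 0.16 without HFD replicate 1 (adjusted p = 0.45).

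Il23a, encoding p19, was at 2.8 and 2.5 TPM in ND against 4.1 and 3.7 in HFD, or 2.65 ± 0.212 against 3.90 ± 0.283. The diets did not overlap, and these levels stand for about 89.6, 92.7, 149 and 117 reads. The difference was 0.42 (SE 0.11, 95% CI 0.10 to 0.75) with an adjusted p of 0.0715, so Il23a was not called, and it was 0.54 at a pseudocount of 0.1 and 0.22 at 5. Il12a, encoding p35, was listed at 0.1 and 0.4 TPM in ND against 0.1 and 0.2 in HFD, which stand for about 2.42, 11.2, 2.75 and 4.78 reads. No difference was detectable at this depth, and with no filter the fitted difference was -0.11 (95% CI -0.62 to 0.40, adjusted p = 0.681). The ratio of Il12b to Il23a was 4.5 and 5.92 in ND and 2.29 and 4.16 in HFD.

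The receptors of IL-12 and IL-23, which T, NK and innate lymphoid cells carry, were low, and the sizes of their differences depended on the pseudocount. Il23r fell by 1.75 (3.0 and 3.4 TPM in ND, 0.3 and 0.2 TPM in HFD; adjusted p = 0.00800), and its difference was -3.25 at a pseudocount of 0.1 and -0.64 at 5. Il12rb1, the chain shared by both receptors, fell by 0.87 (1.3 and 1.1 TPM in ND, 0.2 TPM in each HFD sample; adjusted p = 0.0207; difference -2.11 at a pseudocount of 0.1), a call lost at a pseudocount of 5, under quantile normalization and without HFD replicate 1. Il12rb2 was at 3.2 and 3.5 TPM in ND against 2.2 and 1.8 in HFD (difference -0.54, adjusted p = 0.0578) and was called after rescaling without the 50 most abundant genes (-0.62). Over the same samples the T cell markers summed to 132 and 141 TPM in ND against 16.5 and 30.9 in HFD, and the NK cell markers to 184 and 189 TPM against 38.7 and 30.6 TPM, and their part in the receptor levels was not tested.

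Nos2 was barely above the floor in every sample. Its level was 1.5 and 1.6 TPM in ND against 1.8 and 2.1 in HFD, or 1.55 ± 0.0707 against 1.95 ± 0.212, which stand for about 94.3, 116, 129 and 130 reads. Both HFD samples stood above both ND samples by less than 1 TPM. The difference was 0.21 (95% CI -0.13 to 0.54, adjusted p = 0.263), or 1.16-fold with an interval of 0.916-fold to 1.46-fold on the TPM + 1 scale, which understates the change of a gene this low. The ratio of the mean TPM was 1.26, and the difference was 0.31 at a pseudocount of 0.1 (adjusted p = 0.269). It stayed between 0.09 and 0.31 under the alternatives that kept all samples.

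Genes that supply or use arginine, the substrate of NOS2, or make its cofactor were read beside it. Of those given here, Ass1, Asl, Gch1, Slc7a1 and Nos3 were more abundant than Nos2 in each sample, and Slc7a2 and Nos1 less abundant. Ass1, which rebuilds arginine from citrulline, fell by 1.43 (48.3 and 48.7 TPM in ND, 15.9 and 19.0 TPM in HFD; adjusted p = 0.00890). Its partner Asl had a difference of 0.55 (adjusted p = 0.0167), under the fold limit, and Gch1, which makes a cofactor of nitric oxide synthases, had a difference of -0.49 (adjusted p = 0.016), also under it, though called under quantile normalization at -0.61. The arginine transporters Slc7a1 (0.14, adjusted p = 0.262) and Slc7a2 (0.33, adjusted p = 0.105) and the endothelial synthase Nos3 (-0.35, adjusted p = 0.0586) were not called. The neuronal synthase Nos1 was listed at or below 0.1 TPM.

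The 7 lists of genes around the 10 held 75 genes, of which 70 were tested and 24 called, 4 higher and 20 lower. That is 34.3%, against 18.4% of all genes tested, and the median difference was -0.25. As for Il10, no call of these lists held with either ND sample left out. By list, 1 of 13 receptor chains was called higher and 4 lower (median -0.24), and 5 of 8 tested of the other cytokines of the same families were called lower and none higher (median -0.74). Ltb, a TNF family cytokine of lymphocytes, fell by 2.64 (63.9 and 65.3 TPM in ND, 7.1 and 12.6 TPM in HFD; adjusted p = 0.0158), Lta, its partner, from 1.6 and 1.8 to 0.4 and 0.3 TPM (adjusted p = 0.017, lost at a pseudocount of 5), and Ebi3, a subunit of IL-27, by 0.86 (adjusted p = 0.00912). Il33, an alarmin of stromal cells, went the other way without being called, at 1.0 and 1.2 TPM in ND against 1.5 and 4.9 in HFD (difference 0.87, adjusted p = 0.278), and was called without HFD replicate 1 (1.49, adjusted p = 0.0381). Ltb and Lta lay beside the lower lymphocyte marker sums, whose part was not tested. The part of the marker sums in Ebi3 was not tested either.

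The list of mRNA decay factors and feedback inhibitors had 6 of 17 genes called lower and 1 higher, with a median of -0.20. Zfp36, encoding tristetraprolin, which destroys the mRNAs of TNF, IL-6 and IL-10, was the most abundant at 5874 and 5425 TPM in ND against 3210.1 and 3062 in HFD. It fell by 0.85 (adjusted p = 0.00814), a change that quantile normalization brought to -0.58, under the fold limit. Its relative Zfp36l1 fell by 1.08 (adjusted p = 0.00411), and Nfkbiz, a nuclear cofactor of NF-kappa B needed for Il6, fell by 1.12 (519.9 and 534.3 TPM in ND, 259.4 and 224.3 TPM in HFD; adjusted p = 0.00941). Tnip3, an inhibitor of NF-kappa B signalling, rose by 0.99 (93.4 and 99.7 TPM in ND, 201.1 and 184.8 TPM in HFD; adjusted p = 0.00824). Of the 13 transcription factors, 2 were called lower (median -0.31), Maf given above and Irf1, which fell by 0.64 (adjusted p = 0.0233), a call lost with no filter and without HFD replicate 2. Nfil3, a repressor of Il12b, had a difference of -0.57 (adjusted p = 0.107) and was called without HFD replicate 2 (-0.79, adjusted p = 0.0331). Cebpb, the most abundant of them, had a difference of -0.40 (adjusted p = 0.126). The immediate early genes named above were lower in HFD in 10 of 10, and their part in these lists was not tested.

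**Figure D5:**
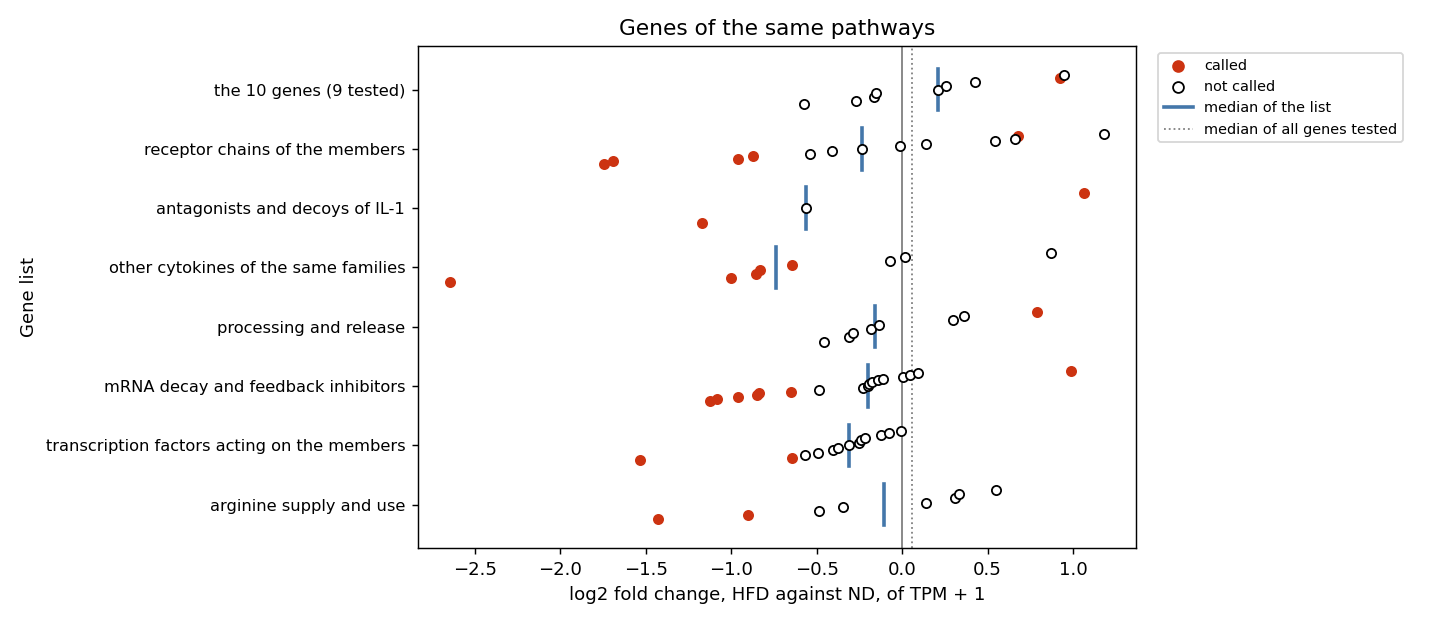
Difference HFD minus ND on the log2(TPM + 1) scale of each tested gene of the 10 and of the 7 lists around them, with called genes filled, the median of each list as a bar and the median of all genes tested as a dotted line. The 24 called genes of the lists were lower in 20 cases and higher in 4.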

How the data were processed

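Per the labels and the study's methods, the authors made stranded mRNA libraries, trimmed reads with Trim Galore 0.4.2 and cutadapt 1.9.1, aligned them to mm10 with STAR 2.6.1e, removed duplicates with Sambamba and counted genes with featureCounts 1.6.2. The deposited values are TPM, gene counts divided by length and scaled to 1 total per sample, printed to 1 decimal. The annotation and strand setting are not given in the sources used here. TPM are shares, so a gene can be lower because others were higher. On the log2(TPM + 1) scale the differences of genes of a few TPM are understated and depend on the pseudocount.

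The 10 genes, the lists and the alternatives were chosen with earlier results of these data known. Genes with at least 1 TPM in at least 2 of the 4 samples (16849) were compared as log2(TPM + 1) with limma 3.58.1 in R 4.3.3 (lmFit, eBayes with a variance trend). P-values were adjusted by Benjamini-Hochberg over all genes tested. All 10 genes are named. Receptor chains, IL-1 antagonists and arginine genes could be named (2 of them are not reported here), and of the other lists the 3 largest differences and the most abundant gene. Ratios are of TPM with no pseudocount. The fit was tested on simulated data.

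Depth was read from the smallest steps of microRNA genes and is approximate. A read on a transcript of 1 kb was worth 0.0606 to 0.0711 TPM, which puts the libraries at about 37500000 to 46800000 reads. Gene positions and exon lengths are from GENCODE vM21 on GRCm38. Settings tried as alternatives were pseudocounts of 0.1 and 5, leaving out the filter, a filter on a mean of 5 TPM, no variance trend, a replicate block, 3 other scalings, other fold limits and each sample left out in turn.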

Additional observations from a re-analysis of the deposited data

How the results depend on the processing

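Il10 was called under each alternative that kept all 4 samples except the fold limit of 2, under which 0 of the 10 genes were called. Median-ratio scaling called 2, Il10 and Tnf (0.93). With 1 sample left out, where the lone sample is assumed to vary like the other diet, 0 to 3 of the 10 genes were called, 0 to 26 genes of the pathway lists and 0 to 4227 of all genes tested. The 0 came with either ND sample left out, for the whole table too. The differences then ran from 0.83 to 1.01 for Il10, 0.63 to 1.27 for Tnf, 0.15 to 0.36 for Il1b, 0.37 to 0.48 for Il23a, 0.14 to 0.28 for Nos2, -0.51 to -0.03 for Il1a, -0.95 to -0.20 for Il6, -0.50 to 0.16 for Il12b, -0.33 to 0.025 for Osm and -0.10 to 0.0736 for Il6st. The signs of Il12b and Osm turned without HFD replicate 1 (0.16 and 0.025), and that of Il6st without HFD replicate 1 (0.0736) or ND replicate 2 (0.03). The count over all genes, 3097, was 2015 at a pseudocount of 5, 1604 at a fold limit of 2 and 812 with a replicate block, and the 24 genes of the pathway lists were 10 and 11 under the last 2. Deviations of samples with the same number were not correlated (correlation -0.015 over 16849 genes). With 2 samples per diet this shows no pairing but cannot exclude it. The block changed no call among the 10 genes. Among the other genes named, the block lost the calls of Tnip3 (adjusted p = 0.0504), Ltb (0.0513), Il6ra (0.0527), Il23r (0.0527), Adam17 (0.0541), Sigirr (0.0672), Irf1 (0.069), Lta (0.0764) and Il12rb1 (0.0811). Nos2 and Il23a have no value with a filter on a mean of 5 TPM, which they miss. The other scalings moved the median of all genes by under 0.1. Il12a, at about 2.42 to 11.2 reads, is beyond what this depth can compare.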

Other observations

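Of the 9 genes tested, 7 differed more between the 2 HFD samples than most genes of like level, and Il23a and Nos2 did not (69.3% and 66.1% of such genes differed by more). Between the 2 ND samples 7 of the 9 also differed more than most, and the exceptions were Nos2 (76.0%) and Osm (59.3%). Tnf differed by 0.65 on the log2 scale between the HFD samples. Of 1063 genes with a mean TPM within a factor of 2 of its own, 6.3% differed by more. Il6 differed by 0.75 between the HFD samples, and 4.89% of 1431 such genes differed by more. The median difference of such genes between the HFD samples was 0.09 for both. Between the ND samples Tnf differed by 0.08 and Il6 by 0.11, against medians of 0.05 and 0.06, and 29.0% and 19.0% of such genes differed by more. Between the HFD samples, the share of such genes that differed by more was 11.2% for Osm, 11.7% for Il1a, 14.6% for Il12b, 17.1% for Il1b and 21.5% for Il10, which differed by 0.18. The ratio of Il10 to Tnf was 2.75 and 2.7 in ND and 2.01 and 3.57 in HFD, so the HFD samples lay on either side of the ND samples.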
